A study of Mus musculus with 9 samples.

Results

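The genes described here are those of the mouse mitochondrial genome, taken as every gene that the deposited count tables place on chrM. They are 37 of the 48440 genes in the tables: 13 protein-coding genes, 2 ribosomal RNA (rRNA) genes and 22 transfer RNA (tRNA) genes. In the study, polyadenylated RNA of J1 mouse embryonic stem cells was sequenced in 9 libraries, 3 biological replicates in each of 3 groups. All 3 groups carry the genotype Suz12-AID: the PRC2 (Polycomb) subunit Suz12 is fused to a degron, so that adding the plant hormone auxin sends the protein for degradation. The Mock group is the control, the Auxin group had 50 µM auxin for 96 h, and in the Re-introduction group the auxin was then washed out for 4.5 h. Cells grew on gelatin with leukemia inhibitory factor and a pair of kinase inhibitors (2i). Whether the degron line is a single clone is not given in the sources used here, and no untagged parental line is among the 9 libraries, so effects of auxin itself and of Suz12 loss cannot be told apart.

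The mitochondrial genome is a small circle copied and transcribed inside the organelle. Both strands are transcribed as long precursors, which are cut mainly at the tRNAs that punctuate them. Most of the messenger RNAs (mRNAs) and the rRNAs then gain short poly(A) tails, and their final levels depend strongly on how fast each is degraded. The 13 proteins are subunits of respiratory complexes I, III and IV and of ATP synthase, while every enzyme that transcribes, cuts, tails and degrades these RNAs is made from nuclear genes. All genes here except mt-Nd6 and 8 of the tRNA genes are coded on the strand that the annotation calls plus.

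The library totals ran from 44341283 to 113931419 counts, both mates of a pair being counted, and 2102758 to 4521288 of these counts per library fell on chrM genes. The filter on low counts passed 20838 genes, among them 18 chrM genes: all 13 protein-coding genes, both rRNA genes and 3 tRNA genes. Levels are given as CPM (counts scaled to equal library sizes) with TMM factors, which assume that most genes do not change. That assumption is in doubt here, as 73.2%, 50.9% and 68.1% of genes differed in the 3 comparisons at the threshold used below. Suz12 mRNA, which the degron does not target, was at 125, 136 and 138 CPM in the 3 Mock libraries, 149.8, 122 and 152 in Auxin, and 166, 173 and 164 in Re-introduction. Markers of embryonic stem cells such as Pou5f1, Nanog and Sox2 were present in every library, and the list of 10 summed to 5868 to 6011 CPM in Mock, 7205 to 7741 in Auxin and 5697 to 5796 in Re-introduction. Its members differed in direction: in Auxin Pou5f1 averaged 583 CPM against 844 in Mock, and Sox2 750 against 374. A list of 7 fibroblast genes summed to 17.8 to 20 CPM in Mock, 39.1 to 46.4 in Auxin and 37.4 to 38.8 in Re-introduction. Thy1 held nearly all of that sum. Summed over Mock, Auxin and Re-introduction libraries in that order, Col1a1 had 108, 34 and 52 counts, Col1a2 47, 73 and 26, and Postn 2, 2 and 4, while Col3a1, Dcn and Lum had 5 to 6 counts in Mock, 0 in Auxin and 1 to 2 in Re-introduction. The 6 primitive endoderm genes summed to 5.84 to 7.04 CPM in Mock, 19.3 to 20.4 in Auxin and 13 to 14.4 in Re-introduction. Gata4 and Dab2 held most of that sum, averaging 3.57 and 8.58 CPM in Re-introduction against 1.70 and 3.54 in Mock. There Gata6 (0.086 against 0.167) and Pdgfra (0.690 against 0.764) were lower than in Mock. Sox17 (0.197 against 0.125) and Foxa2 (0.349 against 0.302) were little higher, whereas in Auxin every member averaged above Mock. The part of these lists in the results below was not tested. Auxin replicate 2 stood apart from its group in how counts followed the GC content of genes, as given below.

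The sequences of this genome show what its counts can and cannot separate, in 3 sets. They are read from the mm10 transcripts of the GENCODE annotation. The first set is the 3 tRNA genes that had enough counts to be tested, shown whole because they carry the tRNA results. All 3 lie on the minus strand of chrM, at chrM:5089-5159 for mt-Tn (tRNA for asparagine), chrM:5192-5257 for mt-Tc (cysteine) and chrM:15356-15422 for mt-Tp (proline).
mt-Tn: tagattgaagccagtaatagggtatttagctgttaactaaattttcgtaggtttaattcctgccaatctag
mt-Tc: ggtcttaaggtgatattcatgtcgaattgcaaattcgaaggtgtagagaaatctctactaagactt
mt-Tp: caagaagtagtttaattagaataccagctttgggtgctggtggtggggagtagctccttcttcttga

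The second set is a pair of places where neighbouring mRNAs overlap. Reads there fit both genes, and the counting, per the file headers, was run without the option that lets such reads count. The last 43 bases of mt-Atp8 are the first of mt-Atp6, and the last 7 bases of mt-Nd4l are the first of mt-Nd4. Capitals mark the shared bases in the windows chrM:7912-7984 and chrM:10152-10188, both on the plus strand.
mt-Atp8/mt-Atp6: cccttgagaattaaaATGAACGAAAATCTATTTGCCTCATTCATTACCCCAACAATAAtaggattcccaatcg
mt-Nd4l/mt-Nd4: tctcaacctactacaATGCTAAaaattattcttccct
mt-Nd5 and mt-Nd6, on opposite strands, also share 14 bases. The counting was not told to use strand, so reads from mt-Nd6 and from RNA of the other strand at the same place cannot be told apart. Whether the mt-Nd6 mRNA carried a poly(A) tail was not measured, so how well the poly(A) selection held it is not known.

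The third set shows how close the nuclear copies of these genes are. A stretch of chromosome 1, from 24611535 to 24616197 on the minus strand, holds 7 pseudogenes that match mitochondrial genes at 99% identity or more. 5 of the 7 matched without any mismatch over the aligned bases: Gm10925 (mt-Atp6), Gm28661 (mt-Co2), Gm28437 (mt-Co3), Gm28439 (first 876 bases of mt-Nd4) and Gm10222 (mt-Nd4l). The other 2 differed from their parents at 1 base each over the aligned bases, which in Gm29216 begin at its base 10. With positions counted from 1 at the parent's first base, these are T3C in Gm28438, the copy of mt-Nd3, and A1066T in Gm29216, which matches the last 483 bases of mt-Co1. Capitals mark those bases in the following windows, at chrM:9459-9491 (plus) against chr1:24613087-24613119 (minus) for mt-Nd3, and at chrM:6390-6423 (plus) against chr1:24616155-24616188 (minus) for mt-Co1.
mt-Nd3: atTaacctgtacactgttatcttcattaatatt
Gm28438: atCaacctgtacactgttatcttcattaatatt
mt-Co1: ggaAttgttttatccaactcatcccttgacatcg
Gm29216: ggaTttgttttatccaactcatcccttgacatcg

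Counts were split almost evenly between mt-Co2, mt-Co3 or mt-Nd4l and their copies, and less evenly for mt-Nd3. The copy of mt-Co3 held 0.998 to 1.01 times its parent's count over the 9 libraries, that of mt-Co2 1.00 to 1.02 times, that of mt-Nd4l 0.991 to 1.02 times and that of mt-Nd3 1.04 to 1.2 times. The copy of mt-Atp6 held 1.28 to 1.32 times its parent's count, and unlike its parent it has no annotated overlap with mt-Atp8. The shorter copies of mt-Nd4 and mt-Co1 held 0.298 to 0.360 and 0.202 to 0.242 times. The reads are 75 bases long, and how a read that fits a gene and its copy was placed is not given in the sources used here. Levels of mt-Co1, mt-Co2, mt-Co3, mt-Atp6, mt-Nd3, mt-Nd4 and mt-Nd4l are therefore uncertain. mt-Nd1, mt-Nd2, mt-Nd5, mt-Nd6, mt-Cytb and mt-Atp8 had no near-identical copy among the annotated genes searched, and sequence between annotated genes was not searched. mt-Atp8 lies between mt-Co2 and mt-Atp6 on chrM, and the copies of both are in the same stretch of chromosome 1. Its level may therefore be uncertain as well. Another 11 copies of lower identity, from 85% up, held at most 0.0509 times the count of their parents. Of these, 3 on chromosome 2 averaged at least 1 CPM in a group: Gm13340, a copy of mt-Co1 (148 to 165 CPM as group means), Gm13341 of mt-Co2 (117 to 158 CPM) and Gm13339 of mt-Nd2 (10.1 to 17.4 CPM).

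**Figure D1:**
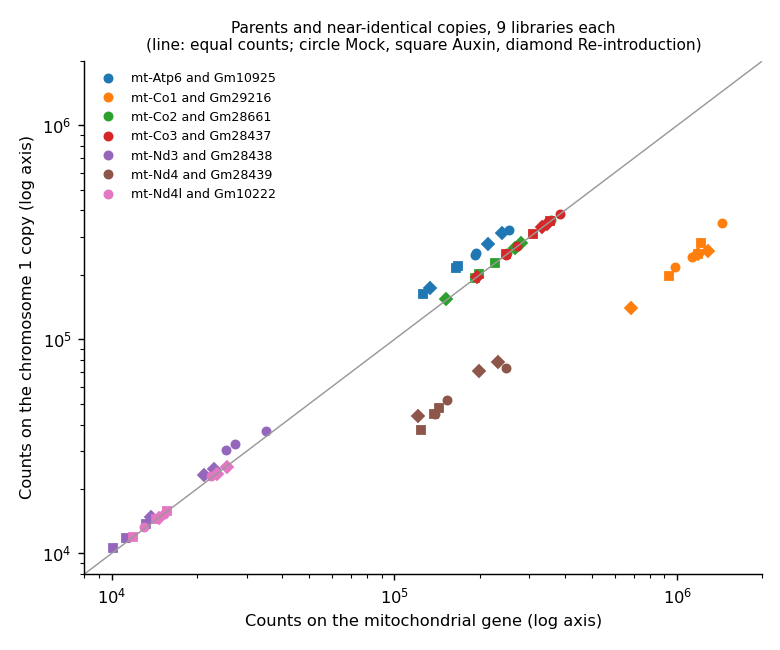
Counts on 7 mitochondrial genes (horizontal log axis) against counts on their near-identical copies on chromosome 1 (vertical log axis), with 1 point per library and the line at equal counts. Points of mt-Co2, mt-Co3 and mt-Nd4l lie on the line in all 9 libraries, those of mt-Atp6 lie above it at 1.28 to 1.32 times, and those of mt-Co1 and mt-Nd4 lie below it.

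The share of a library's counts that fell on chrM overlapped between Mock and Auxin and was higher in Re-introduction. It was 3.97%, 3.79% and 4.0% in the 3 Mock libraries, 3.89%, 3.79% and 3.96% in the Auxin libraries, and 4.80%, 4.74% and 4.58% in the Re-introduction libraries. All 3 Re-introduction libraries lay above all 6 others, and Mock and Auxin overlapped. The means were 3.92% ± 0.116 in Mock, 3.88% ± 0.0874 in Auxin and 4.71% ± 0.114 in Re-introduction (SD, n = 3). In percentage points, Auxin differed from Mock by -0.037 (exact two-sided permutation p = 0.6), Re-introduction from Auxin by 0.83 (p = 0.1) and Re-introduction from Mock by 0.79 (p = 0.1). With 3 libraries against 3, 0.1 is the smallest p that this test can give, so no share difference could reach 0.05. Over the 10 shares tested in 3 comparisons, a p of 0.1 became 0.158 after Benjamini-Hochberg adjustment. With the counts of the 7 near-identical copies added, the means were 5.26% for Mock, 5.33% for Auxin and 6.34% for Re-introduction. In bulk RNA, a change in the number of mitochondrial RNAs per cell and a change in the rest of the cell's RNA cannot be told apart from such shares.

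As shares of all counts, complex I was lower and complex IV higher in every Auxin library than in every Mock library, with the smallest p the test allows. The 7 complex I genes took 1.2%, 1.07% and 1.17% of counts in Mock and 0.925%, 0.773% and 1.01% in Auxin, and the groups did not overlap. The 3 complex IV genes took 1.91%, 1.88% and 1.93% in Mock against 2.25%, 2.44% and 2.16% in Auxin, again without overlap. In Re-introduction, complex I was at 1.53%, 1.46% and 1.36%, above both other groups, while complex IV, at 2.30%, 2.34% and 2.32%, overlapped Auxin. The differences of Auxin from Mock were -0.244 points for complex I and 0.380 points for complex IV (exact two-sided permutation p = 0.1 for each, adjusted 0.158). The complex IV difference depended on scaling by total counts. With TMM factors the 3 genes summed to 21154, 20078 and 20649 CPM in the Mock libraries and 21016, 23129 and 20050 in the Auxin libraries, which overlapped, and the one member called was lower (mt-Co2, given below). The complex I sums, 11482 to 13272 CPM in Mock and 7314 to 9389 in Auxin, did not overlap. The 2 ATP synthase genes took 0.273% ± 0.0239 in Mock, 0.260% ± 0.0551 in Auxin and 0.348% ± 0.0272 in Re-introduction. Both rRNA genes together took 0.0318%, 0.0214% and 0.0278%, and all 22 tRNA genes 0.00164%, 0.00180% and 0.00118%, as means of Mock, Auxin and Re-introduction.

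**Figure D2:**
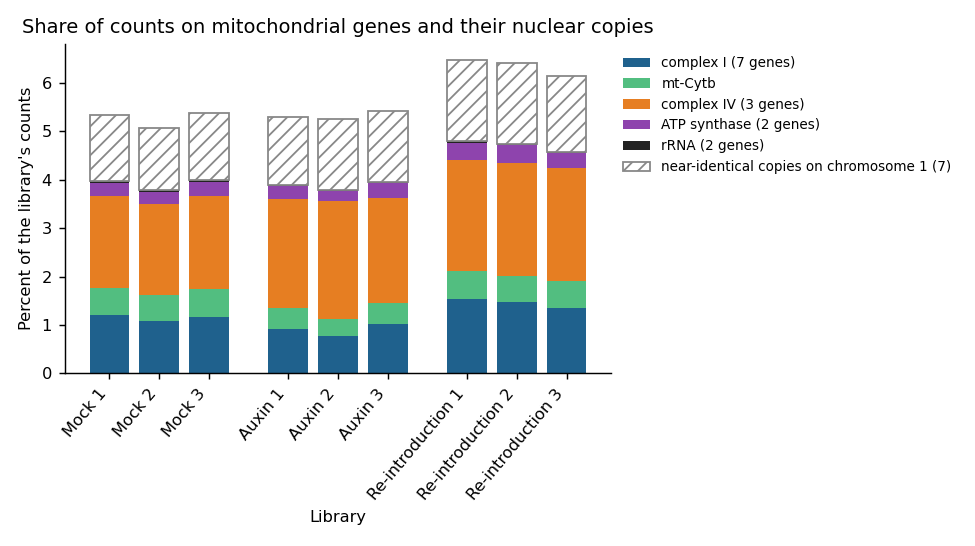
Percent of each library's counts on mitochondrial genes by complex (stacked colours, 1 bar per library) and on their near-identical chromosome 1 copies (hatched). Mock and Auxin bars reach similar solid heights (3.79% to 4.0%), with a smaller complex I part and a larger complex IV part in Auxin, and the Re-introduction bars are taller (4.58% to 4.80%).

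Per kilobase of gene, mt-Co1, the catalytic subunit of cytochrome c oxidase, was the most abundant mRNA of this genome in every library. Its level was 8884 ± 127 CPM per kilobase in Mock, 9485 ± 734 in Auxin and 9885 ± 293 in Re-introduction (SD, n = 3). In Mock it was followed by mt-Cytb (5272), mt-Co2 (4987) and mt-Nd1 (4875 CPM per kilobase), each overlapping the next in the order. Then came mt-Co3 (4451), mt-Atp6 (3668), mt-Nd2 (2344), mt-Atp8 (2248), mt-Nd4 (1502), mt-Nd6 (1342), mt-Nd5 (1112), mt-Nd3 (981) and mt-Nd4l (657), where mt-Nd2 and mt-Atp8 overlapped, as did each neighbour from mt-Nd4 to mt-Nd3. In Auxin, mt-Co3 (5129) stood second, above mt-Co2 (3982), and mt-Nd2 (1095) stood below mt-Nd4, mt-Nd6 and mt-Nd5 by its mean but overlapped all 3. mt-Nd3, a small complex I subunit, was the lowest of the 13 in Auxin at 439 ± 50.6 CPM per kilobase. With the copies added to their parents, mt-Co2, mt-Co3 and mt-Atp6 stood above mt-Cytb and mt-Nd1 in all 3 groups, at 10004, 8909 and 8412 CPM per kilobase in Mock. The rRNAs, which the poly-T selection should hold only in part, were at 144 (mt-Rnr1) and 131 (mt-Rnr2) CPM per kilobase in Mock, below every mRNA.

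**Figure D3:**
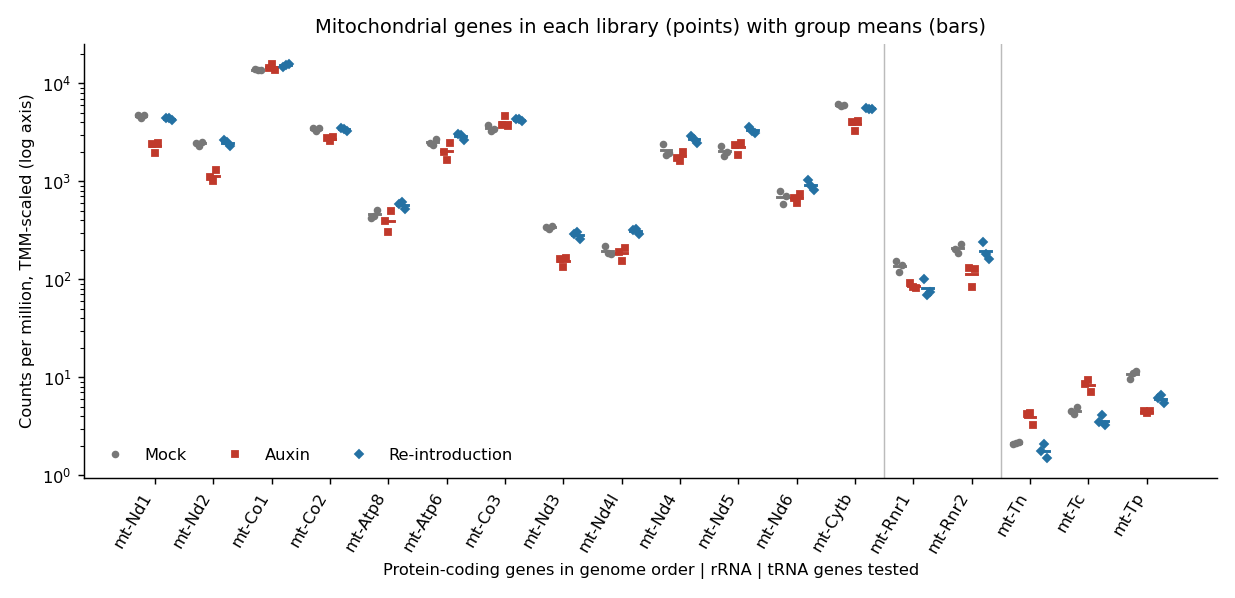
CPM with TMM factors on a log axis for the 13 protein-coding genes in genome order, both rRNA genes and the 3 tested tRNA genes. Points are libraries and bars are means of 3. The Auxin points of mt-Nd1, mt-Nd2, mt-Nd3 and mt-Cytb lie below all Mock and all Re-introduction points, whereas those of mt-Co1 and mt-Nd5 overlap Mock.

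The comparison of Auxin with Mock asks what differed after 96 h of auxin, the treatment meant to deplete Suz12. Of the 13 protein-coding genes, 6 fell and none rose. The fallen genes were mt-Nd1, mt-Nd2 and mt-Nd3 of complex I, mt-Cytb of complex III, mt-Co2 of complex IV and mt-Atp6 of ATP synthase. Changes were called at an adjusted p under 0.05 in edgeR's quasi-likelihood test, and over all 20838 genes 73.2% were called, 38.4% higher and 34.8% lower. At an unadjusted p under 0.05, and with DESeq2, 0 of the 13 rose as well, while under 9 other settings 1 to 6 did. The median log2 fold change of the 13 was -0.21, beside 0.05 over all genes tested.

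Complex I, the entry point of electrons from NADH, showed the widest spread. mt-Nd1, a membrane-arm subunit near the quinone site, was at 4760.2, 4441 and 4794 CPM in Mock and at 2417, 1967 and 2488 CPM in Auxin. mt-Nd2, a proton-pumping subunit, was at 2477, 2288 and 2533 CPM in Mock and at 1117, 1002 and 1292 CPM in Auxin. mt-Nd3 was at 342, 329 and 354 CPM in Mock and at 162, 133 and 164 CPM in Auxin. For all 3 genes every Auxin library lay below every Mock library, at about the same distance. Their log2 fold changes were -1.03 ± 0.09 (SE, adjusted p = 7.52e-07), -1.10 ± 0.09 (8.46e-07) and -1.16 ± 0.09 (3.38e-07). They held under all 19 alternative settings and left-out libraries, between -1.23 and -0.69.

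The remaining complex I genes, mt-Nd4l, mt-Nd4, mt-Nd5 and mt-Nd6, did not pass the test, with log2 differences of -0.07, -0.21, 0.13 and -0.05, and in each the groups overlapped. mt-Nd5, another proton-pumping subunit, was at 2276, 1803 and 2007 CPM in Mock and at 2326, 1834 and 2482 CPM in Auxin. The gene for cytochrome b, mt-Cytb, fell from 6200.4, 5843 and 6049 CPM in Mock to 3999.7, 3275 and 4130.0 CPM in Auxin (log2 -0.67 ± 0.08, adjusted p = 2.14e-05), without overlap. Its call also held under all 19 alternatives, between -0.73 and -0.38.

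Of the complex IV genes, mt-Co1 was at 13939.9, 13556 and 13681 CPM in Mock and 14487, 15862 and 13612 in Auxin (log2 0.09 ± 0.07, adjusted p = 0.242). mt-Co3, a core subunit without redox centres, was at 3734, 3277 and 3459 CPM in Mock and 3769.7, 4661 and 3632 in Auxin (0.20 ± 0.09, adjusted p = 0.0674). In both genes the groups overlapped and the highest library was Auxin replicate 2. mt-Co2, which carries the copper site that takes electrons from cytochrome c, fell by 0.32 ± 0.06 on the log2 scale (adjusted p = 4.75e-04), from 3411 to 2723 CPM on average. ATP synthase gave -0.29 ± 0.12 for mt-Atp6 (adjusted p = 0.0496), whose groups overlapped, and -0.21 ± 0.15 for mt-Atp8 (adjusted p = 0.207). The call of mt-Atp6 was lost under 13 of 19 alternatives, among them the fits without Mock replicate 1, Mock replicate 3, Auxin replicate 1 or Auxin replicate 2. A rise of mt-Co3 and falls of mt-Atp8 and mt-Nd4 passed without Auxin replicate 3, and a rise of mt-Nd5 passed without Auxin replicate 2. The groups of 5 of the 13 genes, all lower in Auxin, did not overlap, beside 74.3% of all genes (38.4% higher, 35.8% lower).

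The make-up of the mitochondrial mRNA pool differed between Auxin and Mock. For this view the counts were scaled to the sum of the 13 protein-coding genes in each library, so that a fall of some members sets a rise of others and the presence of both directions is no result. mt-Co1 made up 32.0%, 33.7% and 32.2% of the pool in Mock and 40.2%, 44.5% and 37.3% in Auxin. mt-Nd1 made up 10.9%, 11.1% and 11.3% in Mock and 6.70%, 5.51% and 6.82% in Auxin. Neither pair of groups overlapped, and Auxin replicate 2 lay at the outer end of both. In this scaling 3 genes rose, mt-Co3 (log2 0.43 ± 0.10), mt-Nd5 (0.35 ± 0.10) and mt-Co1 (0.32 ± 0.09), and 4 fell, mt-Nd3 (-0.94 ± 0.09), mt-Nd2 (-0.88 ± 0.09), mt-Nd1 (-0.81 ± 0.09) and mt-Cytb (-0.45 ± 0.09). Among these called genes, only mt-Nd5 had groups that overlapped. Over all genes, this scaling called 72.7%, 46.6% higher and 26.1% lower, with the median of all genes at 0.27. The number of genes that rose went from 3 to 5 without Auxin replicate 2.

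Count ratios of 4 pairs of neighbours on the genome differed in how far they moved with the groups. mt-Co3 and mt-Nd3 lie on the same strand with only mt-Tg, a tRNA gene of 68 bases, between them. Per count on mt-Nd3, mt-Co3 had 10.9, 9.97 and 9.78 counts in the Mock libraries, 23.3, 35.2 and 22.1 in Auxin, and 15.1, 14.1 and 15.7 in Re-introduction. The 3 groups did not overlap, and Re-introduction lay between the others. mt-Nd2 and mt-Co1 are separated by 5 tRNA genes, 4 of them on the other strand. There were 5.63, 5.92 and 5.40 counts on mt-Co1 per count on mt-Nd2 in the 3 Mock libraries, 13, 15.8 and 10.5 in Auxin, and 5.60, 6.07 and 6.83 in Re-introduction, so that Mock and Re-introduction overlapped and Auxin lay above both. The pair mt-Atp8 and mt-Atp6, made from one overlapping mRNA, gave 0.183 ± 0.0109, 0.193 ± 0.00867 and 0.201 ± 0.00702 counts on the first per count on the second in Mock, Auxin and Re-introduction. For the overlapping pair mt-Nd4l and mt-Nd4 these values were 0.0947 ± 0.00448, 0.103 ± 0.00693 and 0.117 ± 0.00585 (SD, n = 3).

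The lengths and base content of the mitochondrial genes set them apart from most nuclear genes, and how counts followed both differed between libraries. The 13 genes have 31.9% to 41.1% GC and 204 to 1824 bases, whereas the 14728 tested nuclear protein-coding genes have medians of 50.0% GC and 3912 bases, and 9.1% of them have as little GC as the richest member. The slope of counts on gene length, in log2 per doubling, was -0.220 to -0.155 in Mock, 0.0328 to 0.143 in Auxin and 0.0649 to 0.0812 in Re-introduction. The slope on GC, in log2 per 10 percentage points, was 0.187, 0.100 and 0.100 in the 3 Mock libraries, -0.0466, 0.147 and -0.0935 in Auxin, and -0.139, -0.156 and -0.0984 in Re-introduction. With both trends removed, 5 protein-coding genes rose in Auxin against Mock (mt-Co1, mt-Co3, mt-Nd4l, mt-Nd5 and mt-Nd6), and mt-Nd1, mt-Nd2, mt-Nd3 and mt-Cytb still fell, but mt-Co2 and mt-Atp6 did not (both 0.11). Scaling by total counts, which moved the median of all genes from 0.05 to 0.26, called mt-Co1, mt-Co3 and mt-Nd5 higher. Among the 13 genes themselves, Pearson's r of the log2 fold change with GC was 0.31 and with log2 length 0.10, a description over genes that share libraries and precursors.

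The comparison of Re-introduction with Auxin asks what changed in the hours after washout. Of the 13 protein-coding genes, 11 rose and 0 had a log2 fold change below 0, beside 50.9% of all genes called, 25.5% higher and 25.5% lower. All 7 complex I genes rose, as did mt-Cytb, mt-Co2, mt-Atp6 and mt-Atp8, while mt-Co1 and mt-Co3 did not pass the test. The median log2 fold change of the 13 was 0.54, beside 0.003 over all genes, and the groups of 11, all higher, did not overlap, beside 58.2% of all genes (28.8% higher, 29.4% lower).

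The largest rises were those of mt-Nd2, mt-Nd1 and mt-Nd3. mt-Nd2 was at 2640.0, 2525 and 2299 CPM in Re-introduction, above all Auxin and around the Mock libraries (log2 1.13 ± 0.09 against Auxin, adjusted p = 2.45e-06). mt-Nd1 was at 4385, 4447 and 4229.9 CPM (0.93 ± 0.09, adjusted p = 5.78e-06). mt-Nd3 was at 288, 308 and 259.7 CPM (0.90 ± 0.09, adjusted p = 8.80e-06), above Auxin and below Mock in every library. Since both comparisons use the Auxin libraries, a low value in Auxin enters both, and the values are given side by side only.

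Genes that had not passed the test in Auxin rose as well. mt-Nd4l, a small membrane subunit of complex I, was at 191, 156 and 210.4 CPM in Auxin and 322, 329 and 288 in Re-introduction (log2 0.75 ± 0.11, adjusted p = 1.71e-04). mt-Nd5 was at 3556, 3261 and 3135 CPM in Re-introduction (0.58 ± 0.12, adjusted p = 1.49e-03). mt-Nd4, a proton-pumping subunit, gave 0.58 ± 0.11 (adjusted p = 1.16e-03) and mt-Nd6 gave 0.44 ± 0.12 (0.0119), and neither overlapped Auxin. mt-Cytb was at 5631, 5462 and 5529.8 CPM (0.54 ± 0.08, adjusted p = 2.47e-04). mt-Co2 (0.32 ± 0.06), mt-Atp8 (0.54 ± 0.15) and mt-Atp6 (0.49 ± 0.12) rose too, with adjusted p of 1.13e-03, 9.49e-03 and 6.29e-03. mt-Co1 was at 14793, 15333 and 15691 CPM (0.06 ± 0.07, adjusted p = 0.510) and mt-Co3 at 4347, 4347 and 4087 CPM (0.08 ± 0.09, adjusted p = 0.488), both overlapping Auxin. Without Auxin replicate 2 mt-Co3 passed, and without Re-introduction replicate 1 mt-Nd6 did not.

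The rises of mt-Nd1, mt-Nd2, mt-Nd3 and mt-Nd4l held under all 19 alternatives, whereas 6 others depended on the length and GC trends. With the trends removed, mt-Nd1, mt-Nd2, mt-Nd3, mt-Nd4l and mt-Cytb still rose and mt-Co1 (-0.27), mt-Co2 (-0.12) and mt-Co3 (-0.35) fell. Scaled to the mitochondrial pool, 4 genes rose, mt-Nd2 (0.77), mt-Nd1 (0.57), mt-Nd3 (0.54) and mt-Nd4l (0.39), and 2 fell, mt-Co1 (-0.30) and mt-Co3 (-0.28). All genes together gave 59.1% called in that scaling, 8.28% higher and 50.8% lower, with their median at -0.35. Of the 2 falls, 0 remained without Re-introduction replicate 1, 1 without replicate 2 or replicate 3 of that group, and 9 genes rose without Auxin replicate 3.

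The comparison of Re-introduction with Mock shows how far the end state lay from the control. 5 of the 13 genes were higher, 1 was lower and 7 did not pass, beside 68.1% of all genes called, 34.7% higher and 33.4% lower. The median log2 fold change was 0.20, beside 0.03 over all genes, and the groups of 9 genes, 7 of them higher and 2 lower, did not overlap, beside 75.2% of all genes (38.2% higher, 37% lower). The higher genes were mt-Nd5 (0.71 ± 0.12, adjusted p = 2.31e-04), mt-Nd4l (0.68 ± 0.11, 2.07e-04), mt-Nd6 (0.38 ± 0.12, 0.0168), mt-Nd4 (0.38 ± 0.11, 0.0105) and mt-Co3 (0.29 ± 0.09, 0.0173). The lower gene was mt-Nd3 (-0.26 ± 0.09, adjusted p = 0.0200).

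mt-Nd1 (-0.10 ± 0.08) and mt-Nd2 (0.03 ± 0.09) overlapped Mock and did not pass the test. mt-Cytb was at -0.12 ± 0.08, mt-Co1 at 0.15 ± 0.07, mt-Co2 at -0.01 ± 0.06, mt-Atp8 at 0.33 ± 0.15 and mt-Atp6 at 0.20 ± 0.12, none of which passed. The 3 adjacent complex I genes mt-Nd4l, mt-Nd4 and mt-Nd5, together with mt-Nd6 on the opposite strand, thus exceeded Mock, while mt-Nd3, next to mt-Nd4l with 1 tRNA gene between them, was below it. The calls of mt-Nd4l and mt-Nd5 held under all 19 alternatives, but those of mt-Nd4, mt-Nd6, mt-Co3 and mt-Nd3 did not. 3 of these 4 calls were lost at a time without Mock replicate 2 (mt-Nd4, mt-Nd6, mt-Co3), Mock replicate 3 (mt-Nd4, mt-Co3, mt-Nd3) or Re-introduction replicate 1 (mt-Nd4, mt-Nd6, mt-Co3). mt-Co3 was lost as well without Re-introduction replicate 2 and mt-Nd3 without Re-introduction replicate 3. A fit to these 2 groups alone called 10 of the 13 in place of 6.

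In the mitochondrial pool, mt-Nd5 rose from 4.82% ± 0.380 in Mock to 7.17% ± 0.342 in Re-introduction (log2 0.57 ± 0.10) and mt-Nd4l from 0.464% ± 0.0371 to 0.676% ± 0.0350 (0.54 ± 0.10). mt-Nd4 rose as well (0.24 ± 0.10), but its groups overlapped. mt-Nd3 (-0.40 ± 0.08), mt-Cytb (-0.26 ± 0.09) and mt-Nd1 (-0.24 ± 0.09) fell. Over all genes 67.7% were called in this scaling, 28.3% higher and 39.3% lower. mt-Co1 was at 33.0% ± 1.64 of the pool in Re-introduction and 32.7% ± 0.938 in Mock, and the groups overlapped. Without Re-introduction replicate 1 or replicate 2, 3 genes in place of 6 were called in this scaling, 1 of them lower.

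**Figure D4:**
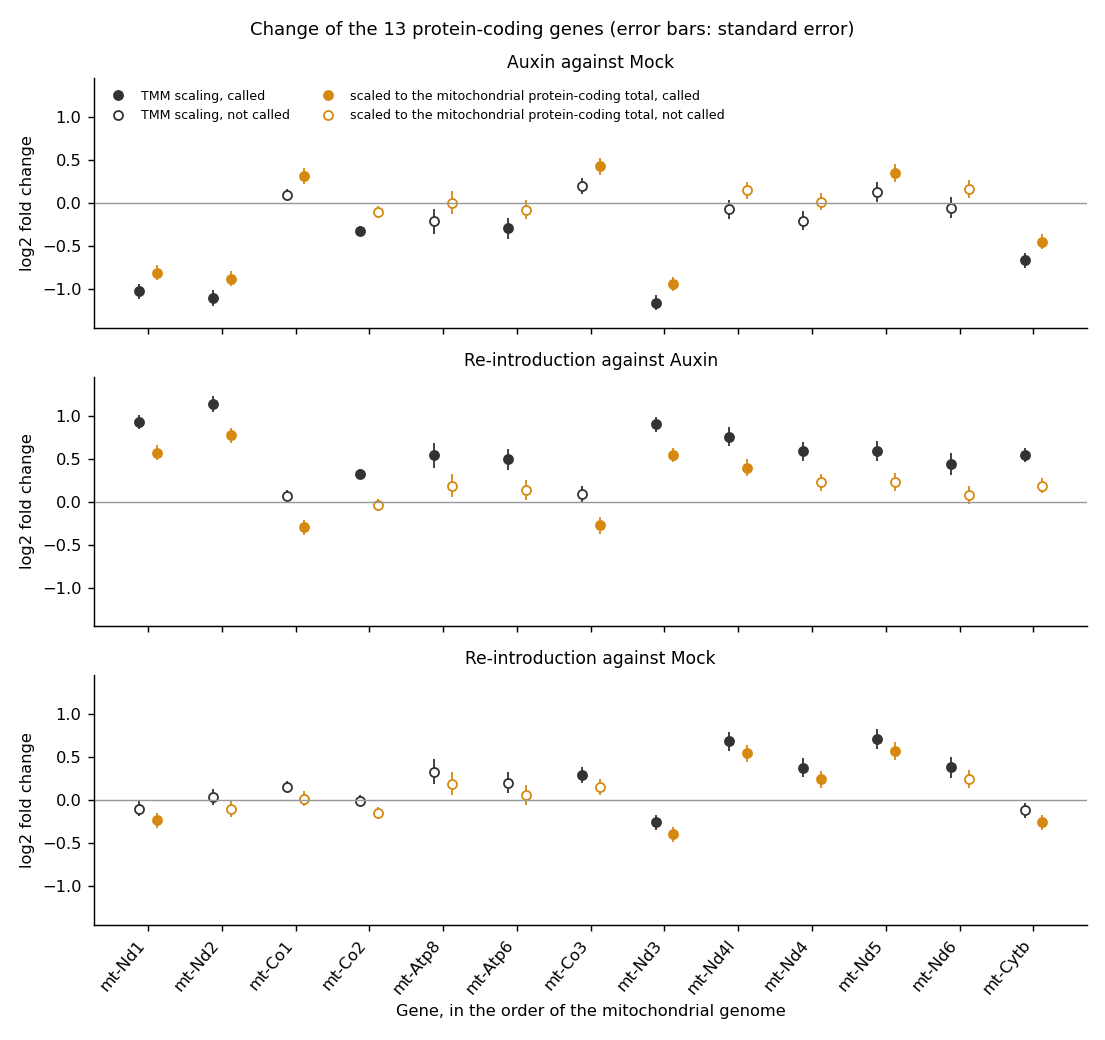
Log2 fold changes of the 13 protein-coding genes in genome order for the 3 comparisons, with standard errors, under TMM scaling (dark) and scaling to the mitochondrial protein-coding total (orange). Filled points passed an adjusted p of 0.05. In Auxin against Mock mt-Nd1, mt-Nd2, mt-Nd3 and mt-Cytb are low under both scalings, and in Re-introduction against Mock mt-Nd4l and mt-Nd5 are high under both.

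The 2 rRNAs of the mitochondrial ribosome behaved differently after washout. mt-Rnr1, the RNA of the small subunit, was at 153, 119 and 139.6 CPM in the 3 Mock libraries, 92.3, 84.0 and 81.1 in Auxin, and 100.2, 68.7 and 73.8 in Re-introduction. mt-Rnr2, the RNA of the large subunit, was at 204, 186 and 229.6 CPM in the Mock libraries, 129.8, 83.4 and 128 in Auxin, and 238, 183 and 161 in Re-introduction. Both fell in Auxin without overlap, mt-Rnr1 by 0.68 ± 0.13 on the log2 scale (adjusted p = 7.18e-04) and mt-Rnr2 by 0.86 ± 0.18 (9.85e-04). After washout mt-Rnr2 rose against Auxin (0.77 ± 0.18, adjusted p = 3.76e-03) and mt-Rnr1 did not pass (-0.08 ± 0.13), so that mt-Rnr1 remained below Mock (-0.76 ± 0.13, adjusted p = 3.88e-04). Counts on mt-Rnr2 per count on mt-Rnr1 were 1.33, 1.56 and 1.65 in the 3 Mock libraries, 1.41, 0.992 and 1.58 in Auxin, and 2.37, 2.66 and 2.18 in Re-introduction, where all 3 libraries lay above the 6 others. With the length and GC trends removed, mt-Rnr1 no longer passed in Auxin against Mock (-0.33) and fell in Re-introduction against Auxin (-0.62). These RNAs were selected with poly-T beads, and their tail length was not measured.

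Mature tRNAs are short and carry no poly(A) tail, and their genes gave few counts. 9 of the 22 tRNA genes were at 0 in all 9 libraries, where a count of 0 allows up to 3 counts, or 0.0677 CPM in the shallowest and 0.0263 CPM in the deepest library. Such limits cover counting error only. In all, 19 tRNA genes had at most 13 counts in any library and were not tested. All of these but mt-Tf have gaps of at most 5 bases to their annotated neighbours. mt-Tn and mt-Tc flank a gap of 32 bases. mt-Tp is the last annotated gene and mt-Tf, with 1 count in all, the first, so on the circle both border the same stretch without annotated genes.

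mt-Tn was at 2.10, 2.16 and 2.20 CPM in the Mock libraries, 4.27, 4.29 and 3.24 in Auxin, and 1.76, 2.07 and 1.51 in Re-introduction. mt-Tc was at 4.51, 4.23 and 4.95 CPM in the 3 Mock libraries, 8.45, 9.47 and 7.11 in Auxin, and 3.49, 4.12 and 3.22 in Re-introduction. mt-Tp, at the other end of the genome, was at 9.72, 10.9 and 11.6 CPM across Mock, 4.57, 4.37 and 4.48 in Auxin, and 6.12, 6.66 and 5.40 in Re-introduction. The Auxin libraries were thus the highest of the 9 for mt-Tn and mt-Tc and the lowest for mt-Tp. Against Mock the log2 fold changes were 0.87 ± 0.14 (adjusted p = 1.68e-04), 0.87 ± 0.12 (5.73e-05) and -1.26 ± 0.10 (3.50e-07), and all 3 held under every one of the 19 alternatives. Against Auxin, Re-introduction gave -1.16 ± 0.15, -1.22 ± 0.13 and 0.43 ± 0.10, with adjusted p of 6.05e-05, 1.45e-05 and 3.69e-03. Against Mock, mt-Tp remained lower in Re-introduction (-0.83 ± 0.10), mt-Tc passed narrowly (-0.35 ± 0.13, adjusted p = 0.0322) and mt-Tn did not (-0.29 ± 0.15, adjusted p = 0.107). The call of mt-Tc was lost without Mock replicate 3, Re-introduction replicate 1 or Re-introduction replicate 3. Counts on mt-Tc per count on mt-Tn were 1.96 to 2.25 in all libraries. These genes have 66 to 71 bases, so an untrimmed read of 75 bases on them reaches beyond the gene, and without strand the counts can hold RNA of either strand.

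Nuclear genes for the copying, transcription, cutting, modification and decay of mitochondrial nucleic acids form the other side of this system. Of 61 such genes listed, 60 were in the tables and 59 were tested. In Auxin against Mock, 4 rose, 47 fell and 8 did not pass, with a median log2 fold change of -0.51. In Re-introduction against Auxin 25 rose and 11 fell (median 0.12), and in Re-introduction against Mock 4 rose and 43 fell (median -0.42). Over all genes tested, 38.4%, 25.5% and 34.7% rose and 34.8%, 25.5% and 33.4% fell in these comparisons, in the same order. These shares also apply beside the counts of subsets given below. If the fold change also had to reach 1.5, 25, 6 and 14 genes were called in the 3 comparisons, of 59 tested, beside 51.4%, 23.8% and 41.2% of all genes.

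Of 11 tested transcription genes, 9 fell in Auxin against Mock and 1 rose, Mterf3 (0.22 ± 0.07), a negative regulator of mitochondrial transcription. Its call was lost without Mock replicate 2, Mock replicate 3 or Auxin replicate 3, and with the length and GC trends removed. In Re-introduction against Auxin, 1 rose, 8 did not pass and 2 fell, among the latter Top1mt (-0.44 ± 0.10), a mitochondrial topoisomerase. Of 7 replication genes, 5 fell in Auxin and 2 rose, Primpol (1.68 ± 0.09) and Polg (0.33 ± 0.05), the catalytic subunit of the mitochondrial DNA polymerase. Primpol, a primase-polymerase that restarts stalled forks, was at 6.90, 7.28 and 6.52 CPM in the 3 Mock libraries, 22.4, 19.2 and 24.7 in Auxin, and 13.2, 12.5 and 13.2 in Re-introduction, and no groups overlapped. Of the same genes, Mgme1 (-0.95 ± 0.05), a nuclease that trims single-stranded ends of mitochondrial DNA, and Rnaseh1 (-0.90 ± 0.06), which removes RNA primers, had the largest falls of the list in Re-introduction against Mock. Ssbp1, the mitochondrial single-strand binding protein, rose against Auxin (0.66 ± 0.05).

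RNA processing genes were mostly lower in Auxin. Beside 34.8% of all genes that were lower, 13 of 14 genes of RNA stability and decay fell. They included Tbrg4 (-1.07 ± 0.06), Fastkd5 (-1.03 ± 0.07) and Ptcd2 (-1.01 ± 0.07), RNA-binding proteins needed for the processing or stability of single mitochondrial mRNAs. Tbrg4 was at 163, 148 and 148 CPM in the Mock libraries, 71.1, 76.6 and 70.3 in Auxin, and 84.9, 79.7 and 81.6 in Re-introduction, with no overlap and Re-introduction near Auxin (-0.90 ± 0.06 against Mock). Elac2, which cuts the 3′ ends of tRNAs from the precursors, fell by 0.99 ± 0.06 on the log2 scale, one of 4 that fell among 5 genes of RNA cutting and 3′ ends. Of 15 RNA modification genes, 11 fell and 1 rose, Nsun3 (0.54 ± 0.07), a methyltransferase of the mitochondrial tRNA for methionine. After washout Nsun3 (-0.46 ± 0.07), Trmu (-0.55 ± 0.07), a tRNA thiouridylase, and Primpol (-0.77 ± 0.09) fell against Auxin. Pnpt1 (0.67 ± 0.08), the polynucleotide phosphorylase of the mitochondrial RNA degradosome, rose against Auxin and was also above Mock (0.45 ± 0.08), though not with the length and GC trends removed (0.07). Fastkd3, another of the FASTK family, was below Mock in Re-introduction (-0.84 ± 0.06).

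Among 6 nuclear regulators of genes for mitochondrial proteins, 4 fell in Auxin and 3 rose after washout. Of all genes, 34.8% fell and 25.5% rose in those comparisons. Gabpa, the DNA-binding subunit of GABP (nuclear respiratory factor 2), was at 125, 134 and 138 CPM in the 3 Mock libraries, 112, 77.7 and 129 in Auxin, and 175, 181 and 172 in Re-introduction. Its Re-introduction libraries lay above the 6 others (0.73 ± 0.14 against Auxin, adjusted p = 1.20e-03), and Auxin overlapped Mock. Pprc1, a coactivator related to PGC-1, rose by 0.63 ± 0.05 against Auxin. With the length and GC trends removed, Polg was -0.13 in Auxin against Mock and Gabpa -0.04 in Re-introduction against Mock, so neither direction held there, and the call of Gabpa against Mock was also lost without any one of the 6 libraries.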

How the data were processed

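The deposited files hold, for each of the 9 libraries, counts per gene with the chromosome, strand and length of each gene. Per the file headers, the authors counted with featureCounts 2.0.6 in paired-end mode over exons by gene, on an mm10 annotation, without a strand option and without counting pairs as units, so each mate is a count and reads touching several genes are left out. The submitters' processing notes also name Trim Galore 0.6.10, FastQC 0.12.1, Bowtie2 2.5.3 and SAMtools 1.20, and the placing of reads with several matches is not given in the sources used here. All 37 chrM lengths equal those of the reference transcripts. Every count column was used.

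Counts were fitted with edgeR 4.0.16 (R 4.3.3): TMM factors, edgeR's default filter on low counts, all 9 libraries in 1 fit with group as the only term, quasi-likelihood tests and Benjamini-Hochberg adjustment over all 20838 genes, called at 0.05. The same fit with the summed chrM protein-coding counts as library size gave changes within the mitochondrial pool. The fits were also tried on simulated data in which few genes changed and the genes that set the pool did not. That trial does not test either scaling where most genes change. Shares used exact permutation tests. Symbols, sequences and GC came from GENCODE's mm10 transcripts, by gene identifier, for 99.2% of genes. Nuclear copies were found with blastn 2.17.0 (at least 85% identity over 100 bases). Of 12 copies listed for the counts, 11 had such a match and Gm10288 (367 to 714 CPM as group means) did not. Length and GC trends were removed as offsets fitted per library on nuclear protein-coding genes, with extreme lengths and GC set to the limits of the fitted range. The mitochondrial genes are short and poor in GC beside those genes, so their offsets rest on the low end of that range. Alternatives, DESeq2 1.42.0 among them, are in the closing section, and the one that adds copies to their parents was chosen after seeing the data.

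All protein-coding and rRNA genes are named, as are the tRNA genes that passed the filter, copies of at least 1 CPM in any group, and per comparison the 4 largest rises and falls of the nuclear list among called genes without overlap. The members and lists were chosen with earlier results of these data known. The labels call the replicates biological without saying how they were separated, so p-values measure the spread between these libraries. Same-numbered libraries of different groups did not deviate together (correlations of -0.136 to 0.0447), so replicate numbers were not used as pairs.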

Additional observations from a re-analysis of the deposited data

How the results depend on the processing

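For gene-wise changes, 1315 recomputed values kept direction and side of the threshold, 77 lost the call, 43 gained one and 47 changed sign. The cause of these changes was not tested. Fits without a library or with 2 groups have fewer samples, and the part of this in the changes was not tested either. In Auxin against Mock, 0 rising protein-coding genes became 3 by total counts, 1 by scaling from nuclear genes, without a filter or with counts halved, 2 with a 1 CPM filter and 5 with length and GC trends removed (0 to 1 with a library left out). The called nuclear factors fell from 51, 36 and 47 to 25, 6 and 14 when a fold change of at least 1.5 was required, and the called near-identical copies from 2, 5 and 4 to 1, 3 and 1 (in the order Auxin against Mock, Re-introduction against Auxin, Re-introduction against Mock). Of 7 copies tested, the 2 called in Auxin against Mock, both lower, became 4 without a filter and 6 with the trends removed (2 to 5 with a library left out). Of all genes, the main fit called 73.2%, 50.9% and 68.1% in the 3 comparisons, and 51.4%, 23.8% and 41.2% with that fold required. Shares of all genes called are not given for the other alternatives. Counts under those alternatives therefore show only how far the calls depended on the setting. In Re-introduction against Auxin, 11 called protein-coding genes became 4 at that fold and the 11 rises became 5 with the trends removed, beside 3 falls. Within the mitochondrial pool, called genes were 4 to 11, rises 4 to 9 and falls 0 to 2 with a library left out, and 1 fell in a fit to these 2 groups. In Auxin against Mock, rises within the pool were 3 to 5 with a library left out. In Re-introduction against Mock, 6 called genes (5 higher, 1 lower) became 2 (2 and 0) at that fold, 8 higher and 0 lower by total counts, 4 lower with the trends removed, and 10 (8 and 2) in a fit to these 2 groups. With a library left out they were 3 to 6 called, 2 to 5 higher and 0 to 1 lower, and within the pool 3 to 7 called and 1 to 3 lower, against 10 called and 6 higher in the fit to 2 groups. With the copies added to their parents, the chrM share differed by 0.0726, 1.01 and 1.08 points in the 3 comparisons.

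Log2 fold changes that changed sign in Auxin against Mock with the trends removed were those of mt-Co2 (0.11), mt-Atp8 (0.18), mt-Atp6 (0.11), mt-Nd4l (0.38), mt-Nd4 (0.0035), mt-Nd6 (0.36) and Polg (-0.13). By total counts these were mt-Nd4l (0.14), mt-Nd4 (0.0074) and mt-Nd6 (0.16), and with a 1 CPM filter mt-Nd4l (0.0012) and mt-Nd6 (0.019). Without Mock replicate 1 they were mt-Nd4l (0.0033) and mt-Nd6 (0.038; -0.18 to 0.038 over left-out libraries), and without Auxin replicate 2 mt-Nd4l (0.033) and mt-Nd6 (0.017). In Re-introduction against Auxin, mt-Co1 (-0.27), mt-Co2 (-0.12), mt-Atp6 (-0.032), mt-Co3 (-0.35) and mt-Nd6 (-0.10) did so with the trends removed, mt-Co1 (-0.019) by total counts and mt-Rnr1 (-0.28 to 0.023 over left-out libraries) without Re-introduction replicate 2. In Re-introduction against Mock, mt-Nd2 (-0.17) and Gabpa (-0.044) did so with the trends removed, and mt-Nd1 (0.031), mt-Co2 (0.12), mt-Cytb (0.0085) and mt-Rnr2 (0.038) by total counts. mt-Co2 (0.014) did so with a 1 CPM filter, mt-Rnr2 (-0.29 to 0.0048 over left-out libraries) without Re-introduction replicate 3, and mt-Nd2 without Mock replicate 2 (-0.034) or Re-introduction replicate 1 (-0.034; -0.034 to 0.065 over left-out libraries).

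With the replicate number as a block, 6, 11 and 6 protein-coding genes were called as before. The replicate block together with removal of the length and GC trends called 10 in Auxin against Mock, 6 of them higher, and 6 copies. For Re-introduction it called 6 against Auxin, 5 higher and 1 lower, and 4 lower against Mock. Signs changed under this block for mt-Co2 (0.11), mt-Atp8 (0.18), mt-Atp6 (0.11), mt-Nd4l (0.38), mt-Nd4 (0.011), mt-Nd6 (0.37) and Polg (-0.13) in Auxin against Mock. They did for mt-Co1 (-0.26), mt-Co2 (-0.12), mt-Atp6 (-0.030), mt-Co3 (-0.34) and mt-Nd6 (-0.11) in Re-introduction against Auxin, and for mt-Nd2 (-0.17) and Gabpa (-0.044) in Re-introduction against Mock. With counts halved, the call of mt-Atp6 was lost (-0.25) and mt-Co3 (0.24) gained one in Auxin against Mock, as did mt-Co1 (0.16) in Re-introduction against Mock. In all, 19 tRNA genes were too low to test at this depth.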
